A study of Mus musculus with 4 samples.

Results

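Inflammatory chemokine genes and the genes of their receptors were compared between 2 lymph nodes of the same mouse. The set was defined by name and held 35 genes, 28 chemokine ligands and 7 receptors, and its members were found by matching the transcript accession of each array probe to a gene symbol. A probe was matched for 34 of the 35, with 41 probes in all, and Cxcl11 had no matched probe. Of these, 28 genes with 32 probes passed the filter on dim probes (3 or more of 4 arrays with a signal well above background, all in 1 channel), out of 21320 genes and unnamed transcripts that passed it on the whole array. The RNA came from whole nodes of 4 female NOD mice aged 12 weeks. NOD is an inbred strain prone to autoimmune diabetes. Both nodes of an animal were compared with each other, and no treatment is named in the labels. The gastric lymph node, or left pancreatic node, was labelled with Cy5 and the pancreatico-duodenal node, or right pancreatic node, with Cy3, on 1 array per mouse. Values are log2 ratios of the gastric over the pancreatico-duodenal node unless a signal is named, and below 0 the gastric node held less of the transcript. The spread over mice is the only error measured, with 1 array per mouse.

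Chemokines are small secreted proteins that bind to G-protein-coupled receptors and to glycosaminoglycans of vessels and matrix, and so direct the movement of leukocytes. Inflammatory chemokines are induced by cytokines such as tumour necrosis factor and interferon gamma and recruit monocytes, neutrophils, eosinophils and effector lymphocytes, whereas homeostatic chemokines arrange lymphocytes within lymphoid tissue. Ligands and receptors are redundant: several ligands share a receptor, and several receptors share a ligand. In a lymph node these genes are known to be expressed by macrophages, dendritic cells, activated lymphocytes, stroma and endothelium.

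The T cell list (10 of 10 measured genes) and the B cell list (8 of 8) were well above background in both nodes on all 4 arrays. No spot was saturated, and 67.1% to 71.4% of probes were well above background in the gastric node channel against 59.6% to 62.6% in the other. All 4 arrays carried the same dye on the same node, so dye and node cannot be told apart. In whole nodes, fewer cells of a type and less RNA per cell cannot be told apart either. The exocrine pancreas list stood apart in mouse 3, with a median log2 ratio of -4.75, while mice 1, 2 and 4 had -0.28, 0.22 and 0.85. The adipocyte list was at 1.72, -1.93, 0.36 and -1.67 in mice 1 to 4.

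Of the 28 measured members, 6 were lower in the gastric node, none was higher and 22 did not pass (limma, Benjamini-Hochberg adjusted p under 0.05 over all 21320 features). Over all features 4.45% were lower and 3.09% were higher, 7.54% in all. Among dimmer features, with a mean log2 intensity under 10, 3.99% were lower. With a filter on both channels, which leaves out Cxcl5, 5 of 24 members were called, beside 7.98% of 19107 features. The 6 were the ligand genes Cxcl14, Ccl11, Cxcl16, Cxcl5 and Cx3cl1 and the receptor gene Ccr3. At an unadjusted p under 0.05 the count was 11 of 28 members, and 30.7% of all features. All 6 calls were lost without mouse 2, without mouse 3 and without mouse 4, where 0, 3 and 1 features of the whole array passed. Without mouse 1 there were also 6, with Ccl6 called in place of Cxcl16. More of the whole array passed in that fit, with 1323 features lower and 844 higher, against 949 and 659 with all mice. The means of the 6 were bound to stay below 0 in these fits, since all 4 mice lay below 0 for each gene.

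The members as a whole lay slightly below the rest of the array, and mouse by mouse they differed. Their median log2 ratio was -0.12, beside 0.03 over all features, and 20 of 28 had a mean below 0 (71.4%, beside 41.9% of all features). Without mouse 3 the median of the members was -0.01, beside 0.03 over all features. Then 15 of 28 members lay below the median of all features, against 20 of 28 with all mice. By mouse, the median of the members was -0.12, 0.10, -0.33 and -0.10 in mice 1 to 4, while that of all features stayed between 0.01 and 0.03. In mouse 2 only 11 of 28 members were below 0, against 18, 21 and 20 in mice 1, 3 and 4. Mouse 2 had the highest value of the 4 mice for 14 members and mouse 3 the lowest for 17 (50% and 60.7%, beside 19.4% and 31.7% of all features). In all, 9 members were below 0 in all 4 mice and 4 were above 0 in all 4 mice, and 15 had both signs. Over all features 17% were below 0 and 24.1% above 0 in every mouse. A mean of at least 0.5 in size was found for 7 members and for 2.19% of all features.

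**Figure D1:**
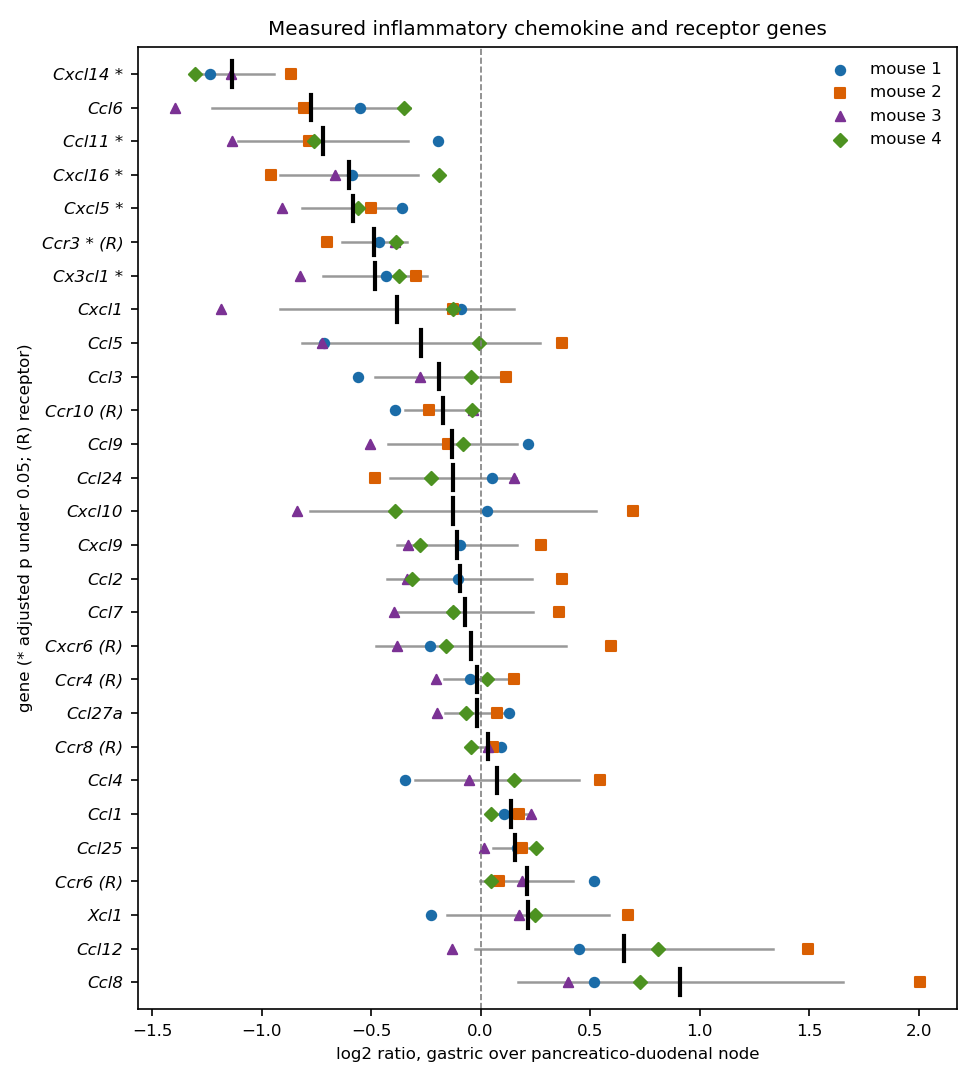
Log2 ratio of gastric over pancreatico-duodenal node (x axis) for each of the 28 measured members (y axis, by mean), with 1 point per mouse, a black bar at the mean and a grey line of 1 SD to either side. An asterisk marks the 6 genes with an adjusted p under 0.05, all with their 4 points below 0; Ccl8 and Ccl12 have their highest point in mouse 2.

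Cxcl14 had the largest mean difference of the set with the processing used here, though the scanner software's ratio put Cxcl5 above it in size. With median centring Ccl8 read 1.39 and Cxcl14 -0.87, or 1.07 and -1.19 relative to the median of all features. On that relative scale Cxcl14 stayed the larger of both. Cxcl14 encodes a CXC chemokine made constitutively by epithelium and stroma that attracts monocytes and dendritic cell precursors. Its log2 ratio was -1.23, -0.87, -1.14 and -1.31 in mice 1 to 4. The values of the 4 mice lay close together and none came near 0. The gene was 2.20-fold lower in the gastric node (-1.14 ± 0.19, SD, n = 4; limma adjusted p = 0.0198), and only 0.164% of all features had as low a mean. The size depended on the processing: the mean was -1.36 with a background offset of 16 in place of 50, and -1.62 with the scanner software's ratio. The scanner software's processed signal was 592, 326, 357 and 361 in the pancreatico-duodenal node of mice 1 to 4. In the gastric node of the same mice it was 184, 143, 108 and 98.7, so the nodes did not overlap. The call was kept in 14 of 17 alternative ways of processing, the exceptions being those without mouse 2, mouse 3 or mouse 4.

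The membrane-anchored chemokines were both lower in the gastric node. Cxcl16 and Cx3cl1 (fractalkine) are made as transmembrane proteins that hold cells bearing their receptors and are shed by metalloproteinases. Cxcl16, a ligand of Cxcr6 that also acts as a scavenger receptor on macrophages and dendritic cells, was at -0.59, -0.96, -0.66 and -0.19 in mice 1 to 4. Mouse 4 showed the smallest difference. The mean was -0.60 ± 0.32, or 1.52-fold lower (SD, n = 4; limma adjusted p = 0.0462). A further probe of Cxcl16 read -0.46, -0.32, -0.66 and -0.11 in the same mice and did not pass (-0.39 ± 0.23; adjusted p = 0.0580 over all kept probes). Cx3cl1, which is known from endothelium and dendritic cells, was at -0.43, -0.30, -0.83 and -0.37 in mice 1 to 4. Mouse 3 was the lowest and the others lay close together. The mean was -0.48 ± 0.24, or 1.40-fold lower (SD, n = 4; limma adjusted p = 0.0447). Both calls were lost when the arrays were only median-centred (Cxcl16 at -0.07 and Cx3cl1 at -0.02, or -0.40 and -0.34 relative to all features), and with the scanner software's ratio. That of Cx3cl1 was also lost with unpaired channels. The receptor genes did not pass: Cxcr6 was at -0.04 ± 0.44 (adjusted p = 0.872) and Cx3cr1, the fractalkine receptor, at -0.19 ± 0.09 (adjusted p = 0.0791).

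The eotaxin axis was lower in the gastric node for 1 of 2 measured ligands and for the receptor. Ccl11 (eotaxin), made by stroma and endothelium, attracts eosinophils through Ccr3. It was at -0.20, -0.78, -1.14 and -0.76 in mice 1 to 4. Mouse 1 showed the smallest difference and mouse 3 the largest. The mean was -0.72 ± 0.39, or 1.65-fold lower (SD, n = 4; limma adjusted p = 0.0466). The processed signal was 458, 705, 492 and 553 in the pancreatico-duodenal node and 357, 389, 173 and 302 in the gastric node of mice 1 to 4, without overlap. Ccl24 (eotaxin 2), made by macrophages, was at 0.05, -0.48, 0.15 and -0.23 on the probe used, with both signs among the mice, and did not pass (-0.13 ± 0.29; adjusted p = 0.474). Its further probe was at -0.09 ± 0.24. Ccr3, the eotaxin receptor of eosinophils, was at -0.46, -0.70, -0.39 and -0.38 in mice 1 to 4. All 4 mice lay below 0 with little spread, and the gene was 1.40-fold lower (-0.49 ± 0.15, SD, n = 4; limma adjusted p = 0.0289). Its further probe, which was not well above background in the gastric node on any array and in the other node on 1 array only, read -0.07 ± 0.21. The Ccl11 call was lost with unpaired channels, with median centring (-0.37, or -0.69 relative to all features, against -0.75 with loess) and with the scanner software's ratio, though its mean there was -0.90. That of Ccr3 was kept in all 3, and the Ccr3 mean was -1.04 with the scanner software's ratio.

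None of 8 measured eosinophil and mast cell genes passed (limma), and 2 were lower without mouse 1. Their median log2 ratio was 0.10, -0.69, -0.48 and -0.23 in mice 1 to 4, with Prg2, an eosinophil granule gene, at -0.36 ± 0.21 (adjusted p = 0.0615). The summed level of the 8 genes was 1031 to 1698 in the gastric node and 1395 to 1970 in the pancreatico-duodenal node (normalized intensity). Of the genes that define eosinophils, Epx and Siglecf were not measured. Their part in the Ccl11 and Ccr3 values was not tested.

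**Figure D2:**
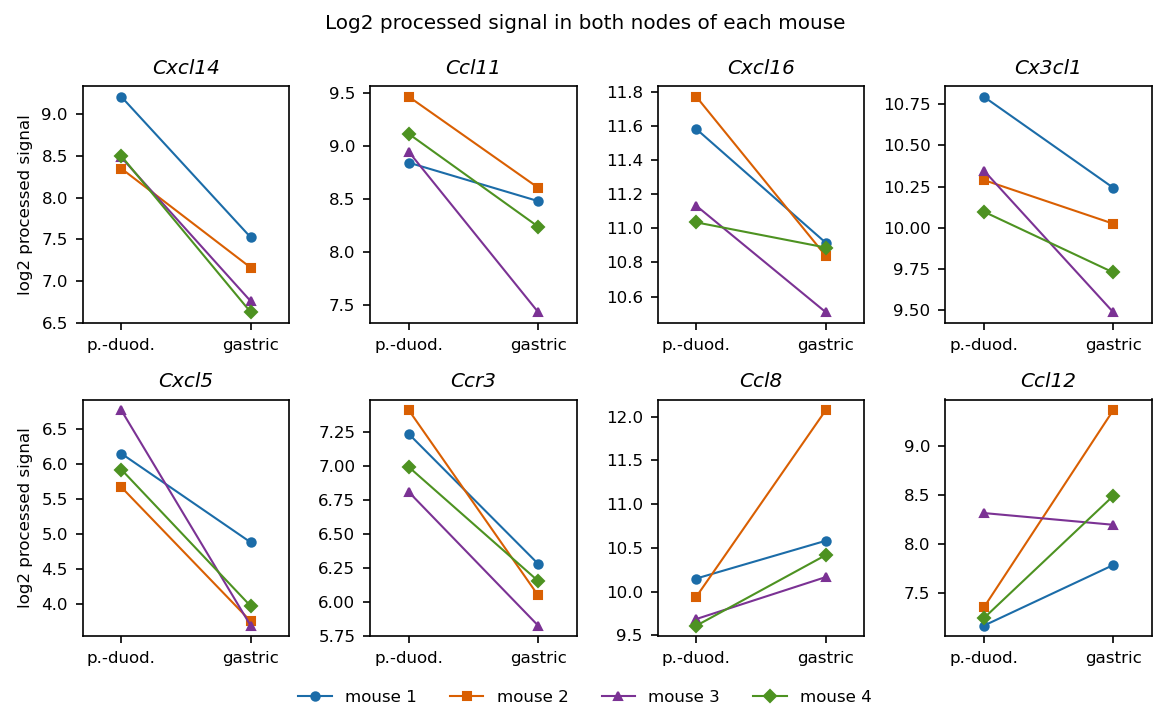
Log2 of the scanner software's processed signal (y axis, each panel with its own range) in the pancreatico-duodenal and the gastric node (x axis) for the 6 called members and for Ccl8 and Ccl12, with a line joining both nodes of a mouse. Every line falls for the 6 called genes; for Ccl8 the gastric node of mouse 2 stands far above the rest at 4311, and for Ccl12 the line of mouse 3 is the only one that falls.

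Ccl6 and Ccl9 are mouse chemokines made constitutively by myeloid cells and bind Ccr1. Ccl6 was at -0.55, -0.81, -1.40 and -0.35 in mice 1 to 4. All mice lay below 0, mouse 3 by far the most, and with 1 probe per gene the mean of -0.78 ± 0.45 narrowly missed the threshold (SD, n = 4; limma adjusted p = 0.0521). It was called in 7 of 17 alternatives, among them that in which each probe was a feature of its own (adjusted p = 0.0494, with 7.92% of all kept probes called). Ccl9 was at 0.22, -0.15, -0.50 and -0.08 in mice 1 to 4 and did not pass (-0.13 ± 0.30; adjusted p = 0.474). Mouse 3 was again the lowest. Ccr1 itself, the receptor of both and of Ccl3 and Ccl5, was not well above background in either node on any array.

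Chemokines with the ELR motif attract neutrophils through Cxcr2, and 2 of 5 were measured. Cxcl5, made mainly by epithelium and stroma, was at -0.36, -0.50, -0.91 and -0.56 in mice 1 to 4. All mice lay below 0, and the mean was -0.58 ± 0.23 (SD, n = 4; limma adjusted p = 0.0330). The gene was dim and entered the test only through the pancreatico-duodenal node, where it was well above background on 4 of 4 arrays, against 2 of 4 in the gastric node. The size of its difference is therefore not well measured, and with a filter on both channels it was not tested. Processed signals were 71.0, 50.9, 109 and 60.6 in the pancreatico-duodenal node and 29.4, 13.5, 12.9 and 15.7 in the gastric node of mice 1 to 4. They did not overlap, and the log2 ratio of the software's values was -2.06. For Ccr3 that ratio was -1.04. Cxcl1 was at -0.09, -0.13, -1.18 and -0.13 in mice 1 to 4. Mouse 3 stood alone, with a pancreatico-duodenal signal of 276 against 66.5 to 95.7 in the other mice, and the gene did not pass (-0.38 ± 0.54; adjusted p = 0.249; -0.11 without mouse 3). Cxcl2, Cxcl3 and Cxcl15 were not well above background in either node on any array. The receptor gene Cxcr2 was at 0.81, 0.52, 0.54 and 0.29 in mice 1 to 4. Cxcr2 passed as higher (0.54 ± 0.21, SD, n = 4; limma adjusted p = 0.0330), though not with unpaired channels. It was the only 1 of 6 measured neutrophil genes that passed, and the list had medians of 0.00, -1.22, -0.29 and -0.15 in mice 1 to 4. Its summed level was 1098 to 2107 in the gastric and 1190 to 11710 in the pancreatico-duodenal node, and Camp, Elane, Ltf, Ly6g, Mmp8 and Ngp were not measured. The part of these cells in the Cxcl5 and Cxcl1 values was not tested.

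The monocyte chemoattractants, several of which act on Ccr2, split into 2 pairs. Ccl8 was at 0.52, 2.01, 0.40 and 0.73 in mice 1 to 4, and Ccl12 at 0.45, 1.497, -0.13 and 0.81. Mouse 2 was the highest for both by a wide margin, and neither gene passed (Ccl8 0.91 ± 0.74, adjusted p = 0.0923; Ccl12 0.66 ± 0.68, adjusted p = 0.147; SD, n = 4; limma). The Ccl8 signal of the gastric node was 4311 in mouse 2 against 1149 to 1532 in the other mice, while that of the pancreatico-duodenal node was 782 to 1136 in all 4. Without mouse 2 the means fell to 0.55 for Ccl8 and 0.38 for Ccl12. Ccl8 was called when the threshold was an adjusted p under 0.10, with 19.7% of all features called. Both were called with median centring, where 69.8% of all features were called. Relative to the median of all features, Ccl12 was at 0.62 there and 0.63 with loess, and Ccl8 at 1.07 and 0.88. Ccl2, at -0.10, 0.37, -0.34 and -0.31 in mice 1 to 4, and Ccl7, at -0.13, 0.36, -0.40 and -0.12, lay near 0. For these too mouse 2 was the highest and mouse 3 the lowest. Their means were -0.10 ± 0.33 (adjusted p = 0.629) and -0.07 ± 0.31 (adjusted p = 0.704), and a further probe of Ccl7 read -0.07 ± 0.32. The receptor Ccr2 was at 0.08 ± 0.35 (adjusted p = 0.697). These genes are neighbours on mouse chromosome 11, where Ccl11 is followed by Ccl12 and then Ccl8 among protein-coding genes of the RefSeq table. In mouse 2 the values of these 3 neighbours were -0.78, 1.497 and 2.01.

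Ccl3, Ccl4 and Ccl5 are made by activated T cells, natural killer cells and macrophages. Ccl3 was at -0.56, 0.11, -0.28 and -0.04 in mice 1 to 4. Ccl4 was at -0.34, 0.55, -0.05 and 0.15, and Ccl5 at -0.72, 0.37, -0.73 and -0.01. Mouse 2 was the highest for all 3, mouse 1 the lowest for Ccl3 and Ccl4, and mice 1 and 3 lay lowest, close together, for Ccl5. None passed: the means were -0.19 ± 0.29, 0.08 ± 0.37 and -0.27 ± 0.54 (SD, n = 4; limma adjusted p = 0.303, 0.736 and 0.401).

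The interferon-induced ligands of Cxcr3, which attract effector T cells, did not pass. Cxcl9 was at -0.10, 0.27, -0.33 and -0.28 in mice 1 to 4, and Cxcl10 at 0.03, 0.70, -0.84 and -0.39. The order of mice 2, 1, 4 and 3 from high to low was the same for both genes. The means were -0.11 ± 0.27 and -0.13 ± 0.65 (SD, n = 4; limma adjusted p = 0.525 and 0.744). Cxcr3 was at -0.25, 0.76, 0.62 and 0.17 in mice 1 to 4 (0.33 ± 0.46; adjusted p = 0.253). Ifng, the inducer of both ligands, was higher in the gastric node in all 4 mice, at 0.49, 1.14, 0.73 and 0.64 (0.75 ± 0.28; adjusted p = 0.0295). Mouse 2 had the highest Ifng value as well, while mouse 3, the lowest for both ligands, had the next highest. A link of Ifng with these ligands was not tested.

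**Figure D3:**
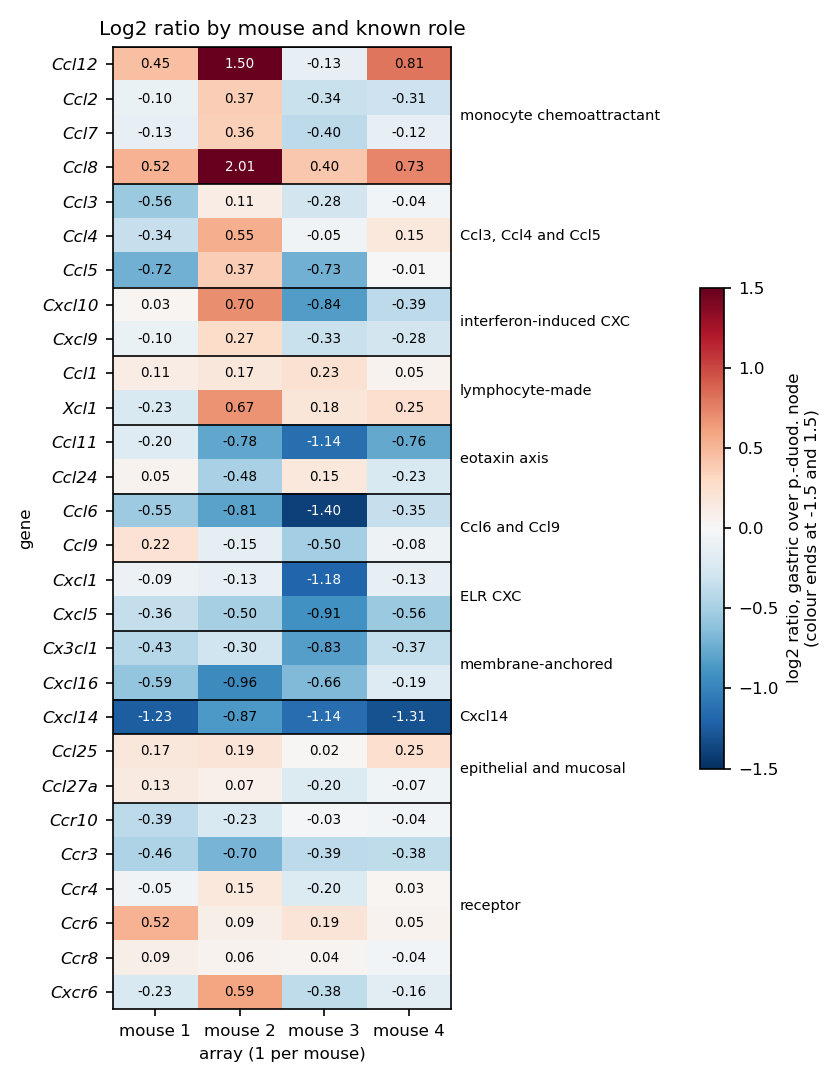
Log2 ratio of gastric over pancreatico-duodenal node (colour and printed value) of each measured member (rows, grouped by known role) in each mouse (columns). The column of mouse 2 is red for the monocyte chemoattractants, Ccl3, Ccl4 and Ccl5, and the interferon-induced ligands, while Cxcl14, Cxcl16, Cx3cl1, Ccl11, Ccl6 and Cxcl5 are blue in all 4 columns.

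Chemokines released by lymphocytes did not pass. Xcl1 (lymphotactin), made by natural killer and CD8 T cells and read by Xcr1 on cross-presenting dendritic cells, was at -0.23, 0.67, 0.18 and 0.25 in mice 1 to 4 (0.22 ± 0.37; limma adjusted p = 0.338). Its receptor Xcr1 was at 0.01, -0.41, -0.83 and -0.84 (-0.52 ± 0.41; adjusted p = 0.0906). Ccl1, a T cell product and ligand of Ccr8, was at 0.11, 0.17, 0.23 and 0.05 (0.14 ± 0.08; adjusted p = 0.124), and Ccr8 at 0.09, 0.06, 0.04 and -0.04 (0.04 ± 0.06; adjusted p = 0.613). Neither Ccl1 nor Ccr8 was well above background on any array in the pancreatico-duodenal node, so these ratios carry little information.

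Epithelial and mucosal chemokines lay near 0. Ccl25, which draws gut-homing cells through Ccr9, was at 0.17, 0.19, 0.02 and 0.25 in mice 1 to 4 (0.16 ± 0.10; limma adjusted p = 0.123), and its further probe was at -0.03 ± 0.06. Ccl27a, a skin chemokine read by Ccr10, was at -0.02 ± 0.15 (adjusted p = 0.887). Ccl20 was not well above background in either node on any array, and Ccl28 was on 1 array in each. Ccr6, the Ccl20 receptor of B cells and Th17 cells, was at 0.52, 0.09, 0.19 and 0.05 in mice 1 to 4 (0.21 ± 0.21; adjusted p = 0.172). Ccr10, of skin-homing T cells and IgA plasma cells, was at -0.39, -0.23, -0.03 and -0.04 (-0.17 ± 0.17; adjusted p = 0.180). Each of the 2 receptors kept 1 sign in all mice, Ccr6 above 0 and Ccr10 below it, as did 24.1% and 17% of all features. Ccr10 was dim, with a processed signal of 21.3 to 28.6 in the gastric node, though well above background in both nodes on all 4 arrays. Ccr4, which Th2 and regulatory T cells carry, had a mean of -0.02 ± 0.15 (adjusted p = 0.879), and its further probe was not well above background in either node on any array. Of the 6 measured receptors Ccr3 alone passed, and their median was -0.03, beside -0.13 for the 22 measured ligands, of which 5 passed.

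Promoter sequences were read for Cxcl14 and for 3 induced ligands that were highest in mouse 2. Each is the 250 bases before the annotated gene start, 5′ to 3′ on the strand of the gene, from RefSeq on GRCm38.p6: Cxcl14 on the minus strand at chr13:56296552-56296801, Ccl8 on the plus strand at chr11:82114935-82115184, Ccl12 on the plus strand at chr11:82101595-82101844 and Cxcl10 on the minus strand at chr5:92348890-92349139. Capitals mark matches on either strand to 4 motifs. They are an interferon regulatory factor motif (GAAA, any 2 bases, GAAA), a STAT motif (TTC, any 3 bases, GAA), an NF-kappa-B motif (GGG, any 2 bases, TT, any base, CC) and the TATA box (TATAAA).
Cxcl14: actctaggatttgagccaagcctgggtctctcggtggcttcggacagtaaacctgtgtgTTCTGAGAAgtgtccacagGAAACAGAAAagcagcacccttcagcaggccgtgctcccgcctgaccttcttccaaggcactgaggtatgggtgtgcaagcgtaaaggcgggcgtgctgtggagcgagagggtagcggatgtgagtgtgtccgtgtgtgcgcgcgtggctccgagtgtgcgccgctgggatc
Ccl8: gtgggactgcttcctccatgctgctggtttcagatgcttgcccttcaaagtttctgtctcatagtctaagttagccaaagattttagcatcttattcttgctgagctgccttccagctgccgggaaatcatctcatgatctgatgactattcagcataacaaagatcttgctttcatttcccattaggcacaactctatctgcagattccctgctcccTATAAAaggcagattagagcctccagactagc
Ccl12: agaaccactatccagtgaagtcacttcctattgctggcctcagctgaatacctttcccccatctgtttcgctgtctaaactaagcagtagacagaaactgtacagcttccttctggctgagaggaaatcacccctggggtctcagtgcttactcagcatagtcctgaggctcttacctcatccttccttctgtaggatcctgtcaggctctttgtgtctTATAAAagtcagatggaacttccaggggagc
Cxcl10: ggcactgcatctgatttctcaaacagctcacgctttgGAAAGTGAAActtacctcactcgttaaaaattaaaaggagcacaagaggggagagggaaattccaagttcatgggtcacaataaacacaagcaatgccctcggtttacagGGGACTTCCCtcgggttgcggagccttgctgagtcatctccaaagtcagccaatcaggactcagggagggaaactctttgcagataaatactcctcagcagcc
In this window Ccl8 and Ccl12 each held a TATA box starting 32 and 31 bases before the gene start and no other match. Cxcl10 held the interferon regulatory factor letters 213 to 204 and the NF-kappa-B letters 103 to 94 bases before the start. Cxcl14 held the STAT letters 191 to 183 and the interferon regulatory factor letters 172 to 163 bases before it. None of the matches overlapped. The table had promoters for 25 of the 35 members, 29 in all. The NF-kappa-B letters were found in 9 of the 29 (31%), those of Ccl9, Ccl20, Ccr3, Ccr6, Cxcl1, Cxcl2, Cxcl3, Cxcl9 and Cxcl10, and in 4.11% of all 32851 promoters. TATAAA was in 8 of the 29 (27.6%, beside 12.4% of all), the interferon regulatory factor letters in 2 (6.9%, beside 2.98%) and the STAT letters in 2 (6.9%, beside 7.02%). Of the 9 genes with NF-kappa-B letters, Ccr3 was lower in the gastric node, 5 did not pass and 3 were not measured.

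Other genes of the chemokine system were called at shares to be read against the 7.54% of all features. Among the other ligands 0 of 9 measured genes passed (limma), with a median of 0.00. Ccl19 (0.41 ± 0.33; adjusted p = 0.0996) and Ccl21a (0.00 ± 0.19; adjusted p = 0.979), of high signal, are homeostatic ligands that guide T cells and dendritic cells into the node. Among the other receptors and scavenging receptors, 1 of 17 was lower (Gpr35, a receptor with reported chemokine binding, at -0.30 ± 0.05) and 1 was higher, Cxcr2. The Gpr35 call was lost with the mean over its probes (-0.22) and with the scanner software's ratio (-0.42), though kept with the authors' series table (-0.87). That of Cxcr2 was kept with the mean over its probes (0.34) and with the software's ratio (0.61), and lost with unpaired channels. Of 36 genes of receptor signalling, 3 were lower and none higher. Among them were the G-protein subunit genes Gnb2 at -0.27 ± 0.04 and Gnai2 at -0.26 ± 0.09 (SD, n = 4; limma adjusted p = 0.0333 and 0.0451). With median centring they read 0.37 and 0.34, where the median of all features was itself 0.32. Of 27 inducing cytokines and their signalling genes, Ifng was higher and Il17rc, an interleukin 17 receptor chain, was lower (-0.47 ± 0.19; adjusted p = 0.0347), and was at 0.00 with median centring. Tnf was at -0.04 ± 0.10 (adjusted p = 0.644) and Il1b at -0.35 ± 0.28 (adjusted p = 0.104). Of 15 genes of chemokine processing and matrix presentation 2 were lower, the gelatinase gene Mmp2, whose product cleaves several chemokines, at -0.85 ± 0.09 and the proteoglycan gene Bgn at -0.72 ± 0.14 (adjusted p = 0.0157 and 0.0198).

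Marker genes of myeloid and stromal cells, known sources of these chemokines, were lower in the gastric node in part. Macrophage and monocyte genes had 7 of 16 measured genes lower and none higher, fibroblastic stroma 4 of 10, blood and lymphatic endothelium 6 of 12 and dendritic cells 4 of 7, each with none higher, beside 4.45% of all features lower. With the scanner software's ratio the lower genes were 4, 4, 6 and 1 in these lists. Without mouse 2, mouse 3 or mouse 4 none of these genes passed. With median centring the counts of lower and higher genes were 4 and 5 for macrophages and monocytes, 2 and 3 for stroma, 5 and 2 for endothelium and 1 and 1 for dendritic cells. Relative to the median of all features, the list medians were then -0.33, -0.31, -0.46 and -0.42. With loess the list medians in mice 1 to 4 were -0.25, -0.42, -0.83 and -0.64 for macrophages and monocytes and -0.07, -0.38, -0.82 and -0.48 for stroma. For endothelium they were -0.12, -0.51, -0.67 and -0.61, and for dendritic cells -0.32, -0.30, -0.60 and -0.31. Mouse 3 was the lowest in each of these lists, and for 17 of the 28 members (60.7%, beside 31.7% of all features). Of the 6 called members Ccl11, Cx3cl1 and Cxcl5 were lowest there, Cxcl14 in mouse 4, and Cxcl16 and Ccr3 in mouse 2. The summed level of the macrophage list was 66918 to 99482 in the gastric and 112665 to 146041 in the pancreatico-duodenal node (normalized intensity), and that of stroma 48960 to 68481 and 72096 to 86168. The sums were 9052 to 13834 and 15557 to 17871 for endothelium, and 5437 to 6789 and 8176 to 9029 for dendritic cells. In these 4 lists the ranges of both nodes did not overlap. Such sums weigh the brightest genes most, which were Marco for macrophages and Thy1 and Dcn for the stroma list, none of which passed. Thy1 is not particular to stroma, so the sums of that list are not those of stroma alone. Thy1 was at 0.17 ± 0.15, against a median of -0.54 for the list, and Dcn at -0.78 ± 0.83. For endothelium and dendritic cells the brightest were Plvap and Batf3, both called lower. Each list had most of its genes well above background on every array, and Cd68 and Vsig4 of macrophages and Clec9a, Ly75 and Zbtb46 of dendritic cells were not measured. Of the lymphocyte lists, 2 of 10 T cell genes and 1 of 10 natural killer and cytotoxic genes were higher, and none of 8 B cell and 7 regulatory T cell genes passed (limma). With the scanner software's ratio none of these genes passed. With median centring 10 T cell, 5 natural killer, 7 B cell and 4 regulatory T cell genes were higher, as were 12821 of all 21320 features. Relative to the median of all features, the medians of these 4 lists were then 0.41, -0.06, 0.44 and 0.12. The part of these cells in the 6 lower members was not tested. Exocrine pancreas genes summed to 11477 to 67483 in the gastric and 6672 to 2050210 in the pancreatico-duodenal node. Without mouse 3 the 6 called members read from -1.14 for Cxcl14 to -0.37 for Cx3cl1, and the median of all 28 members was -0.01, with no member called.

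**Figure D4:**
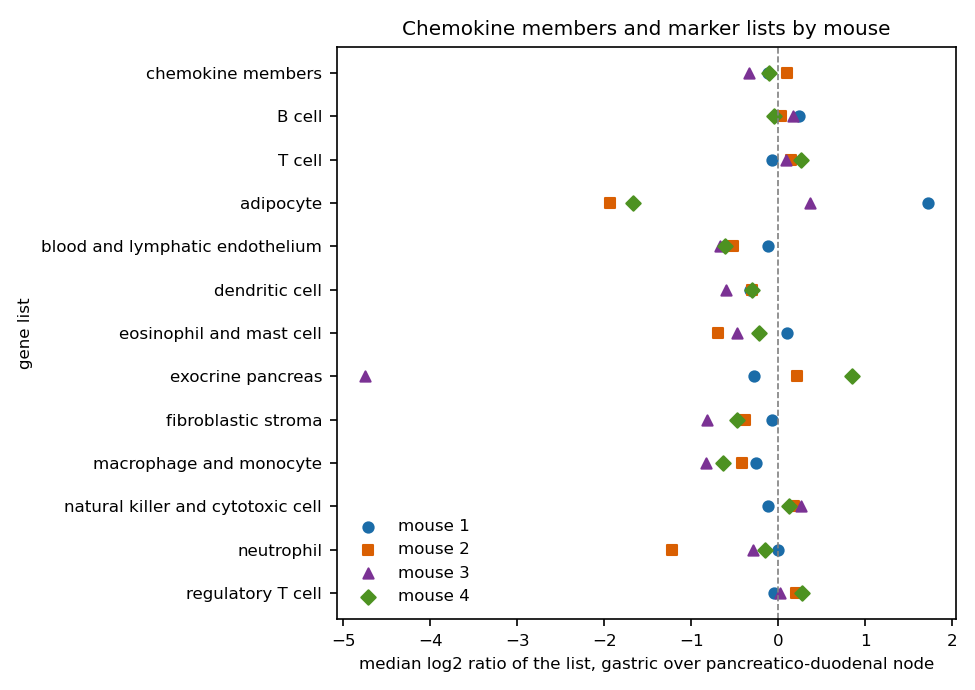
Median log2 ratio of gastric over pancreatico-duodenal node (x axis) of the 28 measured members and of each marker list (y axis), with 1 point per mouse. Macrophage, stromal, endothelial and dendritic cell lists lie below 0 in every mouse, while the exocrine pancreas list is at -4.75 in mouse 3 and the adipocyte list changes sign between mice.

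The choice of normalization moved the zero of the scale more than any other choice tried. When arrays were centred on their median, without loess, the median over all features moved from 0.03 to 0.32, and 2066 features were lower and 12821 higher in the gastric node, against 949 and 659. Of the members 6 were then lower and 10 higher, with 69.8% of all features called. Cxcl14 (-0.87), Ccr3 (-0.44) and Cxcl5 (-0.72) stayed among the lower ones, which also held Ccr10, Ccr4 and Ccr8. There 17 of 28 members lay below the median over all features, beside 20 of 28 with loess. With the scanner software's ratio and with the authors' series table, which is made from it, the same 3 members were lower and none was higher, at 4.89% and 5.03% of all features called.

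**Figure D5:**
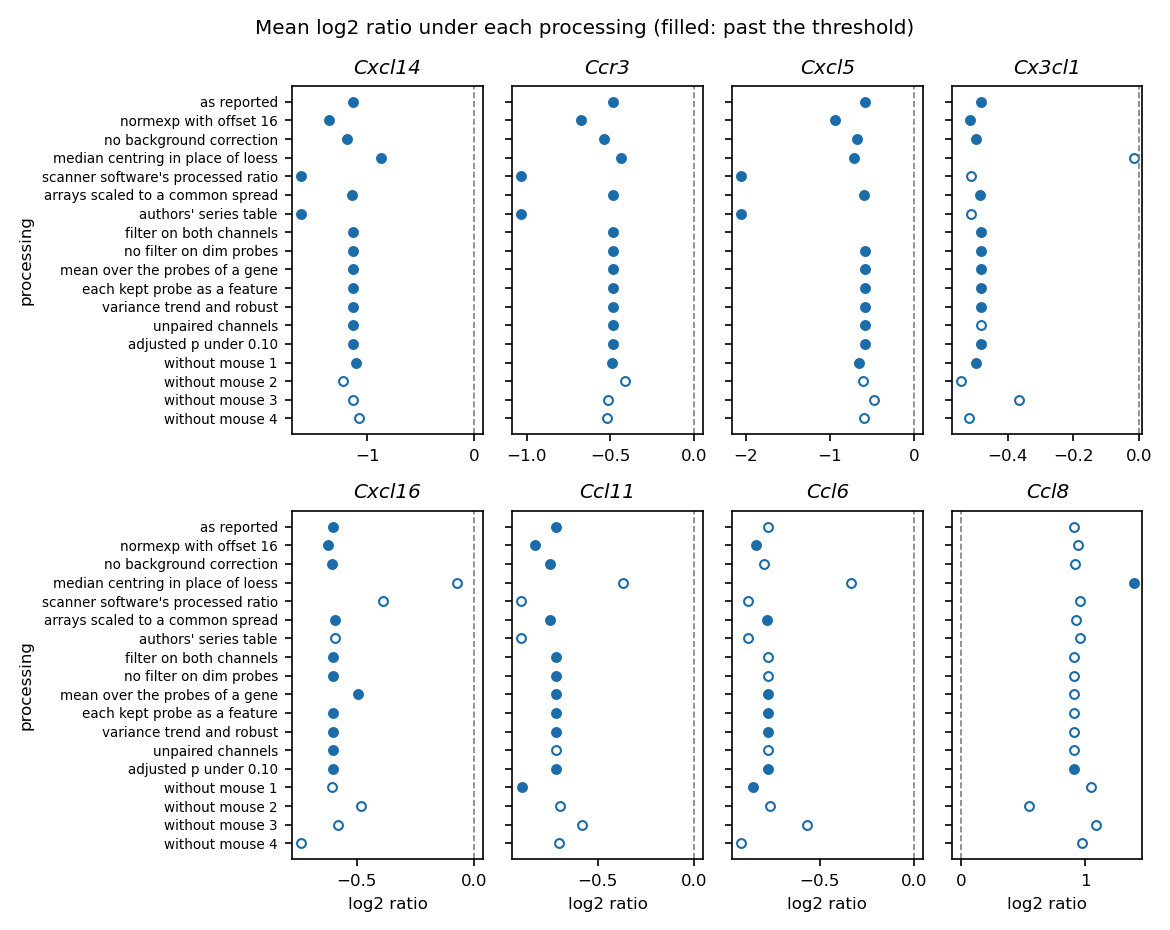
Mean log2 ratio of gastric over pancreatico-duodenal node (x axis, each panel with its own range) of the 6 called members and of Ccl6 and Ccl8 under each way of processing (y axis), filled where the adjusted p passed the threshold. Cxcl14, Ccr3 and Cxcl5 are filled except without mouse 2, mouse 3 or mouse 4 (Cxcl5 has no point with the filter on both channels), whereas Cxcl16 and Cx3cl1 lie near 0 with median centring.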

How the data were processed

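RNA of both nodes of 4 mice was amplified and labelled per the labels, and each mouse had 1 two-colour Agilent array of the same slide, per the file headers. The deposited scanner files, made with Agilent Feature Extraction 10.2.1.3 per the file headers, hold mean and background intensity per spot. They also hold the authors' processed intensity after background subtraction and dye normalization, and its log10 ratio, per the file headers. Log2 values are held by the series table, which the authors deposited. They equalled the log2 processed Cy5 over Cy3 ratio averaged over a probe's spots, within 5.1e-05, and had column medians of -0.15, -0.06, -0.03 and -0.03, so scale and direction are known.

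The tools were limma 3.58.1, R 4.3.3 and data.table (version 1.17.8). Background was treated with normexp at an offset of 50, and loess followed within each array. Control and outlier spots had weight 0, and outlier spots were left out. Probes were named by unversioned accession through a RefSeq table of GRCm38.p6 (24844 of 41174). After the filter the brightest probe of a gene was used, and mean log2 ratios were tested against 0 with lmFit and eBayes, at an adjusted p of 0.05. Members and lists were chosen with earlier results of these data known. All members are accounted for, and those called, of 1 sign in all mice or with a mean of at least 0.5 in size are given by mouse. Of each list up to 4 called genes, or up to 2 of the brightest, are named, and others only as partners of a member. The steps were checked on simulated intensities. Values of some list genes are not reported here. Alternatives covered background correction, normalization, filter, probe choice, variance model, pairing of channels, threshold, the series table and each mouse left out.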

Additional observations from a re-analysis of the deposited data

Results flagged for a closer look

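Among the 28 measured members, Cxcl1 in mouse 3 lay far from the other mice, at -1.18 against -0.13 to -0.09, a gap of 0.963 of the whole range and above Dixon's critical value. Among the 17 gene lists the median of the dendritic cell list in mouse 3 did so too, at -0.60 against -0.32 to -0.30. Chance alone flags about 1 in 20 groups, and 45 groups were looked at.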

How the results depend on the processing

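Among 17 alternatives, those that left out a mouse removed the most calls and median centring added the most. Without a mouse, counts of lower and higher members ranged from 0 to 6 and stayed at 0, and those of all features from 0 to 1323 lower and 0 to 844 higher, with 4343, 5732 and 4299 features at an unadjusted p under 0.05 without mouse 2, 3 and 4. Each of these fits has fewer samples. The median of the members ranged from -0.23 to -0.01 there. The scanner software's ratio left 3 lower members (569 lower features) and the authors' values 3 (584). Unpaired channels left 568 lower and 344 higher features and ended the calls of Ccl11 (adjusted p = 0.0552) and Cx3cl1 (0.0722), and arrays scaled to a common spread gave 1078 higher ones. An adjusted p under 0.10 gave 1 higher member and 2055 lower and 2151 higher features. Median centring gave 10 higher members, 2066 lower and 12821 higher features. It moved the median of all features to 0.32, and 5 uncalled members then passed with the other sign: Ccl2 at 0.40, Ccl27a at 0.38, Ccr8 at -0.19, Cxcl9 at 0.43 and Cxcr6 at 0.51. These signs are relative to a zero that moved with the whole array. Causes beyond fewer samples were not tested. The reported test is itself paired, since each ratio sets both nodes of a mouse against each other. Dim members (Cxcl5, Ccl1, Ccr4, Ccr8, Ccr10) are limited by their signal over background.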
